A study of Mus musculus with 9 samples.

Results

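CHD7 peaks were examined at 10 genes of the primitive streak and the Nodal pathway, which are Nodal, Lefty1, Lefty2, Tdgf1, Foxh1, T, Eomes, Mixl1, Gsc and Lhx1. CHD7 is a chromatin remodeler, an enzyme that moves nucleosomes with the energy of ATP. A peak was assigned to a gene when its midpoint lay in the regulatory domain of the gene. This domain reached from 5 kb upstream to 1 kb downstream of the transcription start site (TSS) and was extended on both sides to the corresponding stretch of the next gene, or to 1 Mb. By this rule 6 of the 3761 peaks in the deposited list belonged to the 10 genes, out of 21911 protein-coding genes with a domain.

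The cells were wild-type (WT) cardiac precursor (CP) cells that were grown from C57BL6 mouse embryonic stem cells. They were taken at day 5 on their way to cardiomyocytes, in a culture model rather than from embryonic tissue. The paper places day 5 between the mesoderm stage and the CP stage of the protocol it followed. CUT&RUN, in which an antibody guides a nuclease to its target and the released DNA is sequenced, was done with anti-CHD7, with IgG and on input without antibody, in 3 biological replicates each. The list used here is 1 list for the 3 anti-CHD7 libraries together and gives positions only, so no value below has a replicate error, and the strength of a peak is unknown. It holds no expression values, and the label CP could not be checked against marker genes.

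Nodal is a ligand of the TGF-beta family that induces mesoderm and endoderm in the primitive streak, the structure through which epiblast cells leave to form these germ layers. It signals through activin receptors with the coreceptor Tdgf1 (Cripto) to SMAD2 and SMAD3, which bind DNA with SMAD4 and the forkhead factor FOXH1, and it induces its own inhibitors Lefty1 and Lefty2. Streak cells that express T and Eomes give rise to the Mesp1-positive mesoderm from which the heart forms, and these early genes are turned off as the cells move on to the cardiac fate.

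The peaks fell to 3 of the 10 genes, Lefty1, Tdgf1 and Lhx1. To show what lay under them, the 300 bp around the midpoint are given for the peak closest to the TSS of each. They come from the plus strand of GRCm38.p6, the assembly that mm10 carries. The window of peak232, upstream of Lefty1, is chr1:180924591-180924890, that of peak2045, upstream of Tdgf1, is chr9:110949054-110949353, and that of peak2429, inside Lhx1, is chr11:84521342-84521641. Capitals mark matches on either strand to the letters of 9 motifs. For the effectors of Nodal these were AATNCACA, the letters of FOXH1, and CAGACA, those of SMAD proteins. For factors of the streak they were GGTGTGA, bound by T-box proteins, CTTTGAT, bound by the LEF/TCF factors, and GGATTA, bound by GSC and OTX factors. The rest were AGATAA for the GATA family of early endoderm and heart, GGGCGG for SP/KLF proteins at many promoters, ATGCAAAT for POU factors of pluripotent cells and ACAATGG for SOX proteins.
peak232: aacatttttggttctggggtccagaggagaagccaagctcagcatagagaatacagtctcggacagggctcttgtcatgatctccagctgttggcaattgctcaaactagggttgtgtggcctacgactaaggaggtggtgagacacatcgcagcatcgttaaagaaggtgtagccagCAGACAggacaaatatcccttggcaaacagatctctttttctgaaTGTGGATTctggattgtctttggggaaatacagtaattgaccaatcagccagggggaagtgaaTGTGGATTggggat
peak2045: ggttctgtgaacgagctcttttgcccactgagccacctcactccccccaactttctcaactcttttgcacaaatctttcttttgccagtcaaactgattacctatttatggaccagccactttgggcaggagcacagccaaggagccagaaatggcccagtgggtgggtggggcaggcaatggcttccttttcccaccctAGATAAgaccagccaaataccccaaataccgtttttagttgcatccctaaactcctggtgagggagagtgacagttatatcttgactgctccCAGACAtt
peak2429: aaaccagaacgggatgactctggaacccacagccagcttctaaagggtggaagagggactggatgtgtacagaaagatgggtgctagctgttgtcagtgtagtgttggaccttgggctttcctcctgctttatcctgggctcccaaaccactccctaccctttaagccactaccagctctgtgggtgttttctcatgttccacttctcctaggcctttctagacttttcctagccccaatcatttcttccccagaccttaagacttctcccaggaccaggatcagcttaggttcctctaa

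In the window of peak232 the capitals are 1 SMAD match and a pair of FOXH1 matches. The FOXH1 letters lie on the minus strand, so the plus strand shows their reverse complement at both places. In the window of peak2045 they are 1 GATA and 1 SMAD match, and the window of peak2429 holds none of the 9 motifs. A match shows only that these letters are present.

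At least 1 peak was thus found for 3 of the 10 genes, whereas 22.7% of all protein-coding genes had at least 1 peak in the domain. The other 7 genes, Nodal, Lefty2, Foxh1, T, Eomes, Mixl1 and Gsc, had none. No peak belonged to 2 of the 10 genes. The 6 peaks were spread unevenly, with 4 in the domain of Lhx1 and 1 each in those of Lefty1 and Tdgf1. The domains of the 10 genes added up to 1.44 Mb and held 4.16 peaks per Mb, beside 1.48 per Mb over the domains of all genes. Without Lhx1 the value was 1.75 per Mb, so that most of this difference came from a single locus. The value without Lhx1 rested on the single peaks of Lefty1 and Tdgf1. The part of domain length in these densities was not tested.

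**Figure D1:**
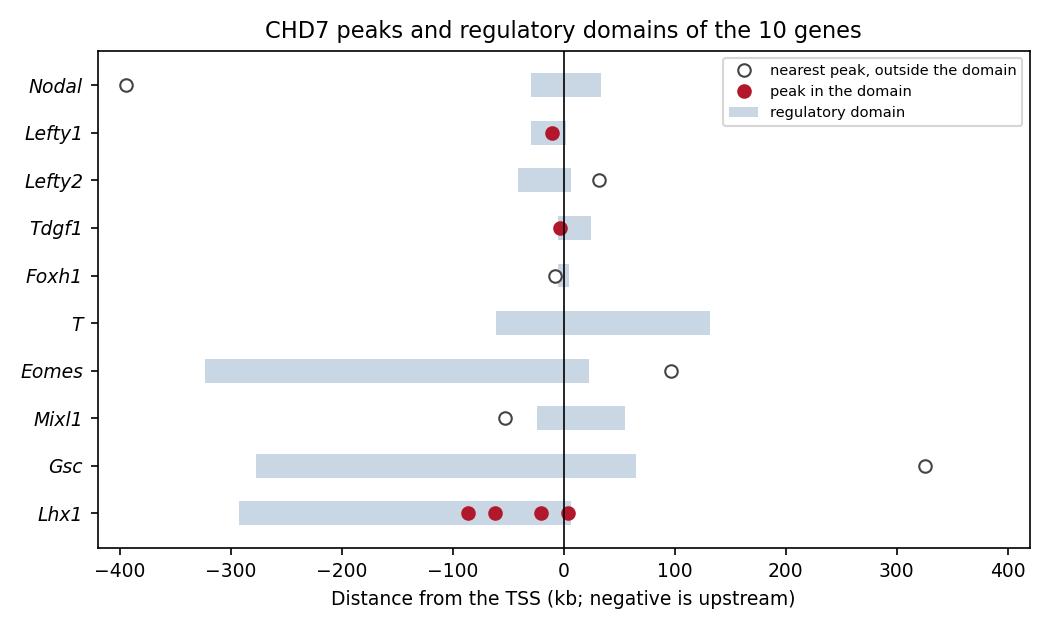
Regulatory domains of the 10 genes (bars) and CHD7 peaks (points) by distance from the TSS in kb, with upstream to the left. Filled points are the 6 peaks inside a domain, 4 of them at Lhx1, and open points are the nearest peak of genes without one. The nearest peak of T lies outside the plotted range.

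Nodal, the ligand of the pathway, had no CHD7 peak. The gene lies on chromosome 10 from 61417972 to 61425338 on the plus strand, and its domain of 63.1 kb is shorter than the median of 90.2 kb over all genes. Its nearest peak was peak2148, from 61023073 to 61023742, with the midpoint 395 kb upstream of the TSS in the domains of Unc5b and Pcbd1. The 100 kb on either side of the Nodal TSS were thus free of peaks in the list.

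Lefty1 and Lefty2 encode secreted inhibitors that bind Nodal and its coreceptors, and Lefty1 restrains the signal at the midline of the embryo. The genes lie close together on chromosome 1, both on the plus strand, with TSSs 41914 bp apart. Lefty1 spans 180935022 to 180938400 and Lefty2 spans 180893108 to 180899103. A single peak lay close to the pair. Peak232, from 180924342 to 180925139, was intergenic, with its midpoint at -10281 bp from the TSS of Lefty1, where a negative distance is upstream. That TSS was the nearest of any protein-coding gene.

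Peak232 lay 31633 bp downstream of the TSS of Lefty2 but outside the domain of that gene. It was 798 bp wide, had a GC content of 49.6% and held no base marked as a repeat in the assembly. Peaks without a repeat base made up 7.92% of the list. The next peak on the chromosome was 166809 bp away. How many peaks of the list lay as far from their neighbours was not counted.

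Tdgf1, the coreceptor that Nodal needs to bind its receptors, had 1 peak. The gene lies on chromosome 9 from 110939603 to 110946158 on the minus strand. Peak2045, from 110948832 to 110949576, had its midpoint at -3046 bp from the Tdgf1 TSS, the shortest distance between a peak and the TSS used for a domain among the 6 peaks. It was intergenic, in the 5387 bp between the TSSs of Tdgf1 and of Lrrc2, a leucine-rich repeat gene that is transcribed in the opposite direction. Its midpoint was closer to the TSS of Lrrc2, at -2341 bp, and the rule gave it to both genes. The position therefore does not tell the 2 genes apart. The peak was 745 bp wide with a GC content of 47.2%, near the medians of 703 bp and 47.5% over all peaks.

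Foxh1 encodes the forkhead factor that brings SMAD complexes to Nodal target genes. It lies on chromosome 15 from 76668225 to 76669948 on the minus strand, in a dense group of genes, and its domain of 9.89 kb was the shortest of the 10. No peak lay in this domain. Peak3157, from 76676892 to 76677839, had its midpoint 7.42 kb upstream of the Foxh1 TSS, outside the domain, and belonged to Ppp1r16a and Gpt.

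T and Eomes encode T-box factors of the streak, T (Brachyury) for posterior mesoderm and Eomes for definitive endoderm and cardiac mesoderm. T lies on chromosome 17 from 8434423 to 8442496 and Eomes on chromosome 9 from 118478212 to 118486132, both on the plus strand. Neither had a peak in its domain, although these domains are long, 192 kb for T and 346 kb for Eomes. T was farthest from any peak. Peak3367, the nearest, was 1265 kb upstream, and T was the only gene of the 10 with no midpoint within 500 kb of its TSS, which held for 22.7% of all genes. Eomes had its nearest peak, peak2058, 96378 bp downstream in the domains of Golga4 and Itga9.

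Mixl1 and Gsc encode homeobox factors of the streak, Mixl1 with a part in endoderm formation and Gsc as a marker of its anterior end and of the organizer. Mixl1 lies on chromosome 1 from 180693043 to 180697034 on the minus strand, with its TSS 196074 bp from that of Lefty2, and Gsc on chromosome 12 from 104471209 to 104473330 on the same strand. Both were without a peak. For Mixl1 the nearest, peak230, was 52.6 kb upstream and belonged to Acbd3 and H3f3a. For Gsc it was peak2688, 326 kb downstream and within the domains of Serpina3b and Serpina3c.

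Lhx1 encodes a LIM homeobox factor of the anterior streak and the node. It lies on chromosome 11 from 84518284 to 84525535 on the minus strand, and its domain of 299992 bp held 4 peaks. At least 4 peaks were found in 0.529% of all genes and in 2.26% of the genes with the longest domains, from 279 kb up. Lhx1 was the only gene of the 10 with so many. The 4 midpoints lay within 90397 bp of each other and used only the part of the domain near the gene.

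Peak2429, from 84521115 to 84521869, was in an intron of Lhx1, 4043 bp downstream of the TSS used for the domain. A noncoding transcript of Lhx1 with a retained intron starts 575 bp from its midpoint. The other 3 peaks were intergenic and upstream, beyond Lhx1os, a lincRNA next to Lhx1. Peak2430, from 84545510 to 84545945, lay at -20193 bp, peak2431, from 84587009 to 84587691, at -61815 bp, and peak2432, from 84610915 to 84612863, at -86354 bp. Lhx1 was the protein-coding gene with the nearest TSS for each of the 4 peaks. The rule gave the upstream peaks to Mrm1 as well, whose TSS is 207626 bp or more away, and peak2429 to Aatf, whose TSS is 7970 bp away. Mrm1 encodes a mitochondrial RNA methyltransferase and Aatf a nucleolar protein.

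Each of the 4 peaks at Lhx1 had the other 3 within 100 kb. In the whole list, 13.0% of peaks had at least 2 other midpoints within that distance. The peaks of the cluster differed among themselves. Peak2432 was 1949 bp wide, wider than 96.6% of all peaks, while peak2430 was 436 bp wide, wider than 8.61%. Peak2430 also had the lowest GC content of the 6, 42.0%, no CpG, and 89.9% of its bases were marked as repeats, beside a median of 13.2% over all peaks. Peak2431 had the highest GC content of the 6, 55.1%, with 17 CpG. Peak2429 held no repeat base.

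**Figure D2:**
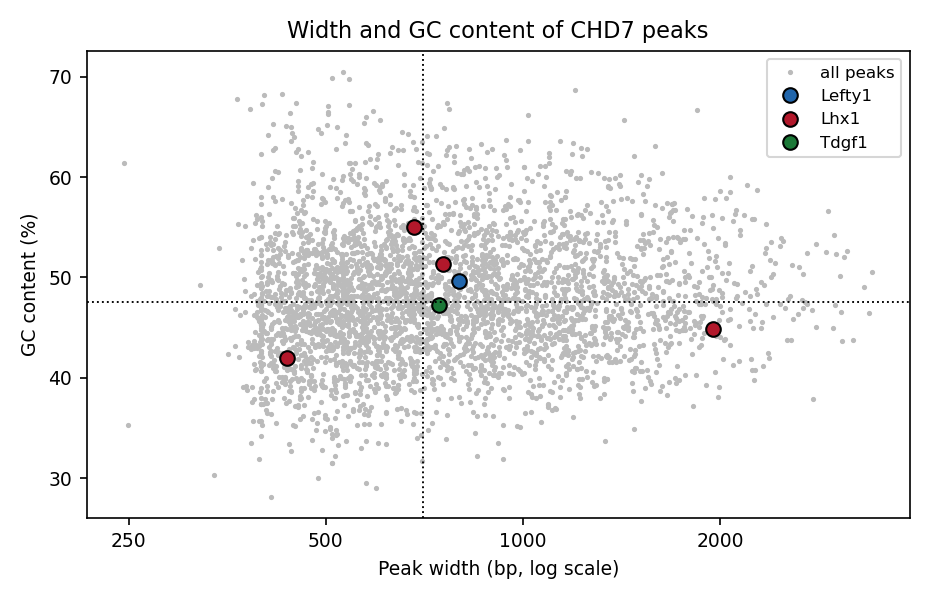
Width (bp, log scale) and GC content (%) of all 3761 peaks (grey) and of the 6 peaks at Lefty1, Lhx1 and Tdgf1, with dotted lines at the medians of 703 bp and 47.5%. The peaks of Lefty1 and Tdgf1 lie near the medians, and those of Lhx1 are spread from 436 to 1949 bp.

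As a long domain has more room for a peak, the genes were put into 5 classes of about equal number by domain length. The share with a peak over all genes was 7.53% in the class of shortest domains (6.00 to 33.0 kb), 12.2%, 18.1% and 31.2% in the next 3 classes and 44.5% in the class of longest domains. The shortest class held Lefty1, Tdgf1 and Foxh1, of which Lefty1 and Tdgf1 had a peak. The longest class held Eomes, Gsc and Lhx1, of which only Lhx1 did. Nodal and Lefty2, Mixl1, and T fell in the classes between and had none. The median domain of the 10 genes was 71.0 kb, below that of all genes.

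**Figure D3:**
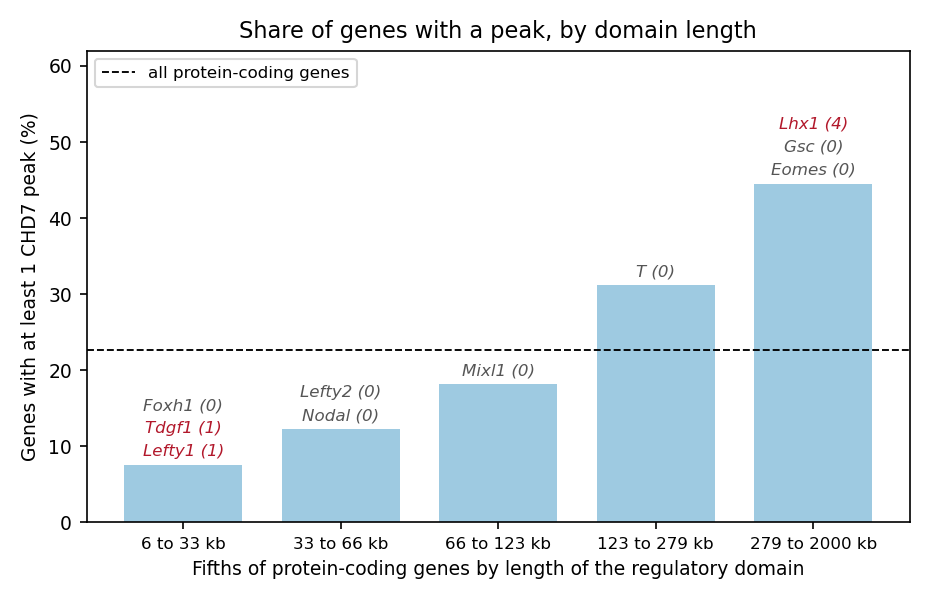
Share of protein-coding genes with at least 1 CHD7 peak (%) in 5 classes of domain length (bars), with the share over all genes, 22.7%, as a dashed line. The 10 genes are written above their class with their number of peaks, in red where they had any.

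Of the 6 peaks, 4 lay over 10 kb from the TSS of the gene (1 at Lefty1 and 3 at Lhx1). Over all pairs of gene and peak, 81.5% did. A peak of the domain lay within 10 kb of the TSS at Tdgf1 and Lhx1, which are 2 of the 10 genes, and at 5.59% of all genes. Without regard to domains, a midpoint was within 10 kb of the TSS of 3 of the 10 genes, Foxh1 being added, beside 6.32% of all genes. Within 100 kb it was 7 of the 10 beside 36.8%, and the genes without were Nodal, T and Gsc. These 2 distances without domains were chosen after the data had been seen.

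Promoters were examined for 6 of the 10 genes. The RefSeq promoter table, which gives 250 bases before and 50 after a gene's start in GRCm38.p6, matched Nodal, Tdgf1, T, Eomes, Gsc and Lhx1. None of their 6 promoters was overlapped by a peak, beside 1.42% of the 32817 promoters in the table. The edge of the nearest peak was 2424 bp from the promoter of Tdgf1 and 3616 bp from that of Lhx1. Of the 9 motifs only SP/KLF was found in these 6 promoters, in those of Tdgf1, T and Gsc, and 35.6% of all promoters held it.

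In the 300 bp windows of the 6 peaks there were 8 motif matches, none overlapping another. FOXH1 matched in 1 of the 6 windows, that of peak232, and in 5.40% of the windows of all peaks. Its matches were centred 77 and 140 bp from the midpoint, and the SMAD match of the same window 31 bp from it. SMAD matched in 2 of the 6, peak232 and peak2045, and in 26.4% of all windows. The letters of both were found in 1 of the 6 windows, that of peak232, and in 1.68% of all windows, a count made after the matches had been seen.

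GATA matched in 2 of the 6 windows, peak2045 and peak2432, and in 17.4% of all windows. LEF/TCF, the factors through which Wnt signals act in the streak, matched in peak2431 and in 5.21% of all windows. GSC/OTX matched in peak2432 and in 10.3%. No window of the 6 held T-box, SP/KLF, POU or SOX letters, which matched in 4.52%, 11.2%, 1.86% and 4.44% of all windows. With 6 windows, a single match moves a share by 16.7 percentage points.

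**Figure D4:**
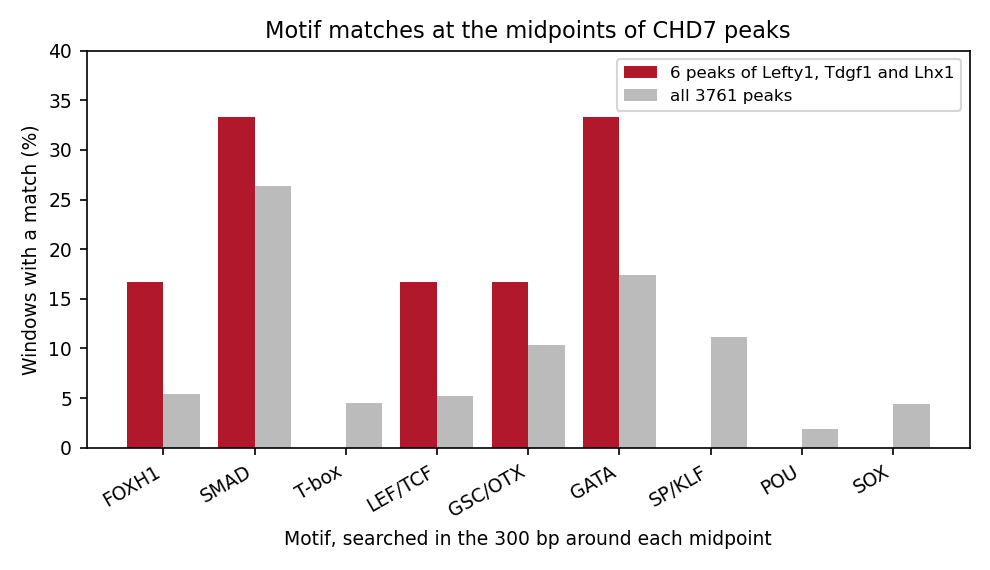
Share of 300 bp windows with at least 1 match to each of 9 motifs (%), in the 6 peaks of Lefty1, Tdgf1 and Lhx1 (red) and in all 3761 peaks (grey). The highest red bars, SMAD and GATA, stand for 2 of the 6 windows and the others for 1 or 0.

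Of 26 other genes of the Nodal pathway, 13 had at least 1 peak. The domains of the 26 genes had a median of 213 kb. The share was 22.7% over all genes and 31.2% in the class of domain length that holds this median. By role the 13 were 4 of 6 ligands and convertases, 1 of 5 receptors and coreceptors, 4 of 5 effectors and 4 of 10 inhibitors and corepressors. Inhba, which encodes an activin subunit, had the most with 5 peaks, in a domain of 1547 kb. At least 4 peaks were found in 2.26% of the genes with the longest domains. Pcsk6, a convertase that processes Nodal, had 3, and Inhbb, another activin subunit, and the effector Smad3 had 2 each. Peaks of the domain within 10 kb, which 5.59% of all genes had, were found at 3 of the 26 genes. They lay at Cer1, an inhibitor of Nodal, at -597 bp, at Cfc1, a coreceptor related to Tdgf1, at 1264 bp, and at Inhbb at 6126 bp.

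Among 26 further genes of the streak and early mesoderm, 13 had a peak, 8 of 16 transcription factors and 5 of 10 ligands and receptors. The median domain of these 26 genes was 183 kb, in the same class of length. Bmp4, a ligand needed for mesoderm, had 7 peaks in a domain of 375 kb. Foxa2, a forkhead factor of the anterior streak, had 5 in a domain of 1024 kb, and Gata6 and Sp5 had 3 each. Cdx2, a caudal homeobox factor of the posterior streak, was the only gene of these 26 with a peak of its domain within 10 kb, at 6235 bp. For comparison, 9 of 15 cardiac precursor genes had a peak, led by Fgf10 and Osr1 with 3 each and Gata4 and Tbx5 with 2 each, and 1 of the 15, Gata4, had a peak within 10 kb, at 3655 bp. Of 12 pluripotency genes 7 had a peak, led by Tfcp2l1 and Tbx3 with 3 each and Sox2 and Esrrb with 2 each, and 2 of the 12, Klf4 (-992 bp) and Nanog (-4932 bp), had a peak within 10 kb. The median domains of these lists were 370 and 361 kb, in the longest class, where 44.5% of all genes had a peak. The rule can give 1 peak to 2 genes, so the lists may share peaks. Peak1102, the closest peak of Tbx3 at 35849 bp, lies between the TSSs of Tbx3 and Tbx5. The paper assigns the same peak to Tbx5, so at this locus the pluripotency and cardiac precursor lists are not separate. All 4 lists had longer domains than the 10 genes, and the part of domain length in their shares was not tested.

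**Figure D5:**
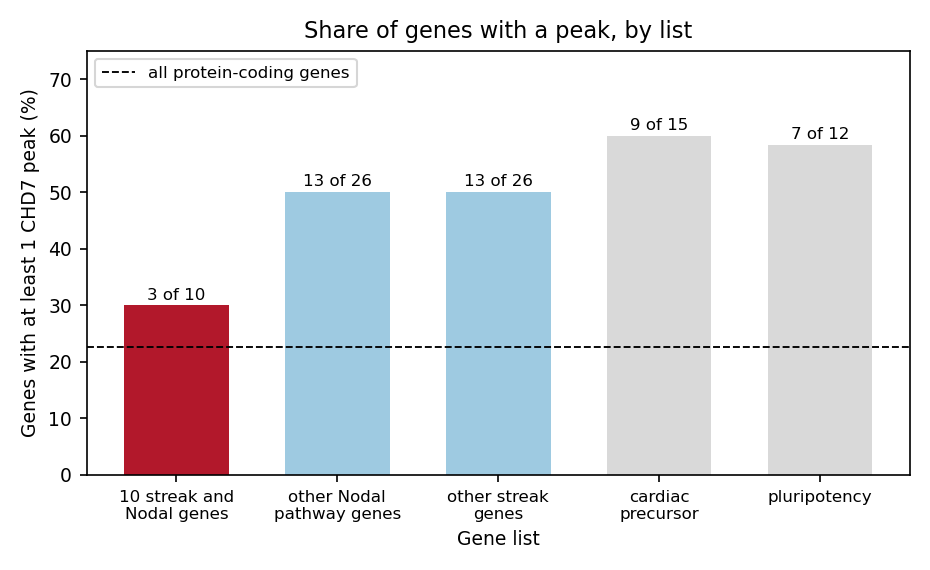
Share of genes with at least 1 CHD7 peak (%) among the 10 streak and Nodal genes (red), other Nodal pathway and streak genes (blue) and the cardiac precursor and pluripotency lists (grey), with the share over all protein-coding genes, 22.7%, as a dashed line. Numbers above the bars are genes with a peak of genes in the list.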

How the data were processed

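CUT&RUN libraries, 3 of each kind, were made with anti-CHD7, with IgG and from input. Per the study's methods, the authors trimmed reads with fastp 0.20.1, aligned them to mm10 with BWA 0.7.17.4, removed duplicates by molecular identifiers with JE-Suite, called peaks per sample with MACS2 2.1.2 against IgG and kept peaks overlapping in at least 2 replicates. The calling threshold was not given in the sources used here. The deposited list holds start and end positions (bp). Reads, IgG and input were not analysed here, so depth is unknown.

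Starts were read as counted from 0, and peak numbers are the order in the list. Each protein-coding gene of GENCODE M21 received 1 TSS (protein-coding transcript first, then APPRIS level, then spliced length), and 1 gene was kept per symbol. Motif letters were searched on both strands in GRCm38.p6, whose chromosome names and lengths were compared with the list. Repeats are the lower-case bases of the assembly. All 10 genes are named, and of each other list the 4 with the most peaks (ties by the peak closest to the TSS) and up to 4 with a peak within 10 kb. Genes that share a peak with the 10 are named, except 1 that is not reported here. The genes and lists were chosen with earlier results of these data known, so counts are described with no test. Functions were tested on simulated data. Python 3.11.15, numpy 2.4.6, pandas 2.3.3, pysam 0.24.0, matplotlib 3.10.9 and samtools 1.23.1 were used.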

Additional observations from a re-analysis of the deposited data

How the results depend on the processing

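Lefty1, Lhx1 and Tdgf1 were the genes with a peak under 6 of 9 other settings. Over all genes the share with a peak was 22.7% with either other choice of TSS and with merged peaks, 23.0% with any overlap with the domain, 17.0% with an extension of at most 100 kb and 13.0% with peaks wider than the median. With the single nearest gene Lefty1 and Lhx1 had a peak, beside 14.2% of all genes. With the 2 nearest genes there were 5, Mixl1 and Foxh1 being added, beside 25.3%. With the basal domain alone, which is shorter by construction, 1 gene (Tdgf1) with 1 peak was left, beside 3.16% of all genes, 0 peaks lay over 10 kb away, and the genes with a peak were 1 in the Nodal pathway list, 0 in the streak list, 0 in the cardiac precursor list and 2 in the pluripotency list. The 100 kb extension left 5 cardiac precursor genes, and the single nearest gene 8 streak genes. Peaks wider than the median left 2 of the 10 genes' peaks over 10 kb away, 7 Nodal pathway genes and 3 pluripotency genes. Chosen after seeing the data, any midpoint within 10 kb, found for 6.32% of all genes, gave 3 peaks, 0 of them over 10 kb away, and 3 Nodal pathway, 2 streak, 1 cardiac precursor and 2 pluripotency genes. Within 100 kb, where 36.8% of all genes had one, it gave 7 of the 10 genes and 11 peaks, 8 of them over 10 kb away. In 200 bp windows SMAD matched in 1 of the 6 peaks (18.5% of all peaks), LEF/TCF in 0 (3.48%) and GSC/OTX in 0 (6.86%). Over whole peaks, which are longer, the shares of all peaks rose too, and FOXH1 matched in 2 (14.3%), SMAD in 4 (54.5%), T-box in 2 (12.5%), LEF/TCF in 3 (14.5%), GSC/OTX in 3 (25.8%), SP/KLF in 1 (23.4%) and SOX in 2 (10.9%). GATA matched in 2 as before, but in 36.8% of all peaks, so that its share in the 6 was no longer above that of the list, and POU in 0 (4.73%). No paired analysis was possible because the list carries no replicate values. Sites below the authors' calling threshold were not examined.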
